A study of Bos taurus with 15 samples.

Results

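Lymphatic endothelial cells of the newborn (NB) Holstein gut were picked from single-cell RNA sequencing counts of 7 libraries, which covered the glandular stomach (abomasum), the small intestine (duodenum, jejunum, and ileum), and the large intestine (cecum, colon, and rectum). A barcode, the tag of a cell, was taken when it held 500 to 4000 genes, under 50000 unique molecular identifiers (UMIs, each counting a captured RNA molecule), at least 1 UMI of PROX1, at least 1 UMI of EGFL7 or PECAM1, and none of PTPRC or EPCAM. PROX1 is the transcription factor that sets lymphatic identity, EGFL7 and PECAM1 are carried by endothelial cells in general, PTPRC marks leukocytes, and EPCAM marks epithelium. This gave 1173 PROX1+ cells of 57985 barcodes within the limits in the 7 libraries, and of 132361 in the 15 libraries of the series. They were set against 5859 PROX1- cells of the same libraries, which had UMIs of EGFL7 and of CLDN5, a tight junction protein of endothelium, and none of PROX1, PTPRC, or EPCAM. A CLDN5 UMI was thus required of PROX1- cells only. Genes that go with CLDN5 may be raised in that set for this reason, which was not tested. PROX1, EGFL7, PECAM1, CLDN5, PTPRC, and EPCAM chose the cells and were therefore described but not tested.

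All 7 tissues came from newborn calves of this breed, and no treatment is named. Each tissue gave 1 library, and the labels state the stage without an age in days and do not name the calf behind each library. The outer muscle layers were stripped, the mucosa was treated with EDTA and then trypsin, and the rest was digested with collagenases, hyaluronidase, dispase, and DNase I (abomasum) or with a lamina propria dissociation kit (the 6 intestinal tissues). Abomasum and intestine thus differed in tissue and in enzymes, which cannot be told apart. The libraries served as the replicates. The newborn tissues were collected from 3 calves, so tissues share animals, and which ones do is not given. The spread given below is between tissues, and p-values measure this spread, which is not one between independent animals and may in part be technical.

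Lymphatic vessels of the gut drain interstitial fluid, carry absorbed fat in chylomicrons from the lacteals of the villi, and return leukocytes to the lymph nodes. Initial lymphatics are thin, blind-ended tubes that express LYVE1 and CCL21, the chemokine that guides dendritic cells into them, while collecting vessels carry valves built under PROX1, FOXC2, GATA2, and NFATC1. VEGFC is the main growth factor of lymphatic vessels and acts through the receptor FLT4 (VEGFR3), often together with KDR (VEGFR2) and the coreceptor NRP2. In newborn ruminants, colostrum and milk are absorbed through the same wall that these vessels drain.

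The counts of PROX1+ cells were 135 in the abomasum, 307 in the duodenum, 399 in the jejunum, 111 in the ileum, 136 in the cecum, 12 in the colon, and 73 in the rectum. Their summed UMIs ran from 83008 in the colon to 2834774 in the jejunum, with 7792752 in all. At the depth of the colon, 1 UMI was equal to 12.0 CPM (UMIs of a gene per 1000000 UMIs of the cells summed), so a colon value of 0 says little of a weakly expressed gene. PROX1- cells gave 658576 to 13312526 UMIs per library. Median UMIs per cell were 4026 to 7426 in PROX1+ cells and 4052 to 6489 in PROX1- cells. Within a library PROX1+ cells were the deeper set in 6 of 7, by the most in the jejunum (6777 against 4820), and in the abomasum both sets were close (4026 against 4052). Between pairs of the 7 libraries, 20 to 84 barcode sequences were shared in each of 21 pairs, and 0 of these were PROX1+ cells in both libraries.

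PROX1 itself had 311 CPM in the abomasum, 265 in the duodenum, 246 in the jejunum, 288 in the ileum, 279 in the cecum, 301 in the colon and 218 in the rectum, and by the rule 0 in PROX1- cells. Of the 1173 PROX1+ cells, 673 (57.4%) held a single PROX1 UMI and 500 held more. EGFL7 ranged from 1416 to 1793 CPM, PECAM1 from 132 to 426 CPM, and CLDN5 from 303 in the duodenum to 1434 in the colon. A CLDN5 UMI was found in 836 PROX1+ cells (71.3%), with the lowest share in the duodenum (48.2%) and the highest in the cecum (91.9%). Within 100 genes of the lower limit, 7 PROX1+ cells lay inside it and 10 barcodes that met every other condition lay outside, and within 100 genes of the upper limit 9 lay inside and 13 outside. In all, 17 barcodes that were otherwise alike lay under the lower limit and 112 over the upper limit, of which 41 were in the cecum and 23 in the rectum. A further 189 barcodes had PROX1 without a UMI of EGFL7 or PECAM1, 113 of them in the ileum. Of those in the ileum 0.885% held UMIs of at least 3 of the 7 lymphatic genes listed below. The share was 0% in the colon and at most 30% (rectum), against 83.6 to 95.8% per library of PROX1+ cells.

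The name was checked against genes that the rule did not use. Of the PROX1+ cells, 1088 (92.8%) held UMIs of at least 3 of the 7 genes LYVE1, FLT4, CCL21, PDPN, MMRN1, RELN, and PKHD1L1, with 83.6 to 95.8% per library, and 53 held none. In PROX1- cells the same was true of 820 (14.0%), or 10.7 to 20.9% per library. The set without PROX1 UMIs therefore still holds barcodes with lymphatic transcripts, and the differences given below are against this mixed set. Conversely, 208 PROX1+ cells (17.7%, 0 to 24.7% per library) held UMIs of at least 3 of 7 blood endothelial genes. Summed over 9 lymphatic markers other than PROX1, the level was 13003 to 29034 CPM in PROX1+ cells, 1307 to 3570 CPM in PROX1- cells, and 77.7 to 238 CPM in stromal barcodes (COL1A2 without UMIs of PROX1, EGFL7, PECAM1, PTPRC, or EPCAM), so the sets did not overlap. The markers of lymphatic endothelium were thus present in all 7 libraries, as the label says.

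Markers of other cell types were summed in the same way. Summed over 6 fibroblast markers, PROX1+ cells had 24.1 CPM (colon), a median of 173 CPM, and 679 CPM (abomasum), PROX1- cells had 151 to 1131 CPM, and stromal barcodes 9076 to 29126 CPM. Of these genes, COL3A1 and DCN were lower in PROX1+ cells and 4 did not pass the test described below (median -0.51). Against PROX1- cells without lymphatic UMIs 0 of the 6 were called by edgeR and the median was 0.19, with COL3A1 at 0.051 and DCN at 0.21, whereas with at least 2 PROX1 UMIs all 6 were lower (median -1.54). Without the abomasum 4 of the 6 were lower. Without library as a term edgeR called 0 of 6 (median -0.38). It called 0 of 5 tested with the highest doublet scores removed (-0.48), and 0 of 4 without cells holding COL1A2 or TAGLN (-0.36). Over 5 epithelial markers the sums were 0 to 86.7 CPM in PROX1+ cells and 10.4 to 89.8 CPM in PROX1- cells, against 1230.5 to 3653 CPM in barcodes with EPCAM. Over 7 smooth muscle and pericyte markers they were 10.0 to 275 and 52.0 to 415 CPM. The 3 of these genes that could be tested, ACTA2 (-1.57 ± 0.36), MYH11 (-1.16 ± 0.37), and RGS5 (-1.10 ± 0.34), were all lower in PROX1+ cells (median -1.16, adjusted p at most 0.0248, edgeR). Without library as a term edgeR called 0 of the 3 (median -1.33), with the highest doublet scores removed 0 of 2 tested (-0.73), and after thinning or without cells holding COL1A2 or TAGLN 0 of 1. Leukocyte markers summed to 34.5 to 515 CPM in PROX1+ cells and 13.4 to 364 CPM in PROX1- cells, with CXCR2 at 0 in both. Only 2 of these 8 genes passed the filter on low counts. JCHAIN, the joining chain of secreted antibodies, was lower in PROX1+ cells, at 0 to 51.5 CPM against 2.85 to 314 CPM (-2.28 ± 0.53 on the log2 scale, adjusted p = 0.00365, edgeR). It was highest in the cecum, ileum, and rectum of PROX1- cells, and was not called by DESeq2, without library as a term, or without cells holding COL1A2 or TAGLN (-0.64). JCHAIN was too low to be tested without the ileum or without the cecum. The same held with the highest doublet scores removed, after thinning, with at least 2 PROX1 UMIs, and with both EGFL7 and PECAM1 required. The macrophage gene C1QA stood at 474 CPM in the jejunum, 226 CPM in the abomasum, and 133 CPM in the cecum (difference 1.13 on the log2 scale, adjusted p = 0.164, not called). C1QA was called higher with the highest doublet scores removed (1.72), after thinning (0.82), and without the filter on low counts (1.05), and it was -0.28 with at least 2 PROX1 UMIs and -0.37 with both EGFL7 and PECAM1 required. Enteroendocrine, erythroid, and mesothelial markers summed to at most 8.21, 15.8, and 3.28 CPM in PROX1+ cells.

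The share of PROX1+ cells was taken in each segment, which is 1 library. Of all barcodes within the limits they made up 1.35% in the abomasum (exact binomial 95% interval 1.13 to 1.60), 3.62% in the duodenum (3.23 to 4.04), 3.04% in the jejunum (2.76 to 3.35), 1.47% in the ileum (1.21 to 1.76), 2.13% in the cecum (1.79 to 2.51), 0.250% in the colon (0.129 to 0.436), and 0.957% in the rectum (0.751 to 1.2). These intervals cover counting error only, and what a dissociation released set the denominator. Of both endothelial sets together, PROX1+ cells were 13.7% in the abomasum, 24.0% in the duodenum, 14.3% in the jejunum, 24.0% in the ileum, 20.1% in the cecum, 10.0% in the colon, and 10.2% in the rectum. The 3 segments of the small intestine averaged 20.8 ± 5.62% and the 3 of the large intestine 13.4 ± 5.76% (SD, n = 3 libraries each). The difference of -7.34 percentage points (large minus small) gave p = 0.2 in the exact two-sided permutation test, whose smallest possible p with 3 against 3 libraries is 0.1, and the cecum lay above the jejunum. Outside these 7 tissues, the same rule found 18 barcodes in adult jejunum, 16 in adult cecum, 7 in newborn reticulum, 6 in liver, 3 in salivary gland, 2 in adult colon, 1 in omasum, and 0 in adult duodenum, too few for a profile.

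**Figure D1:**
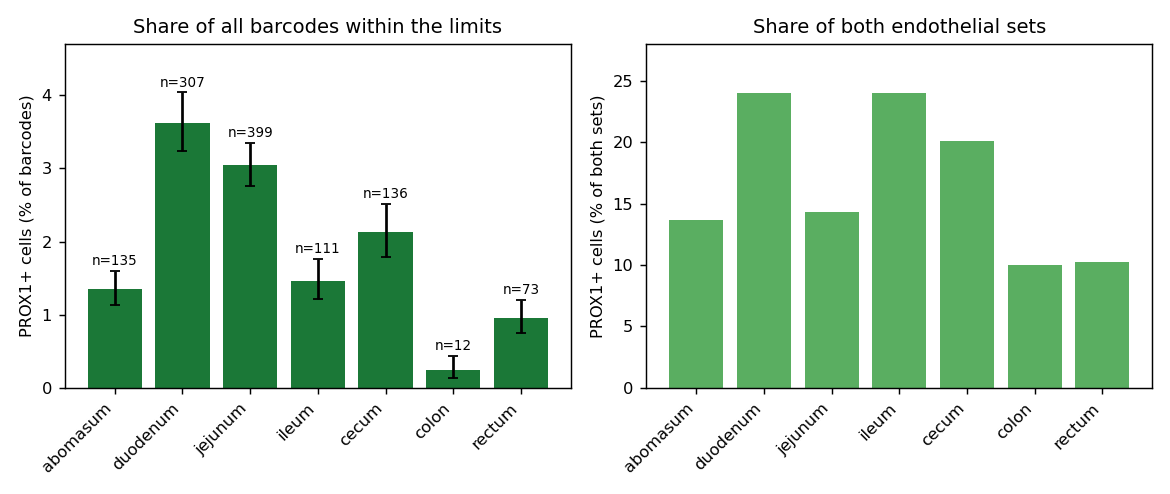
Left, PROX1+ cells as a percent of all barcodes within the limits in each of the 7 newborn libraries, with exact binomial 95% intervals and the number of cells above each bar. Right, PROX1+ cells as a percent of both endothelial sets. Both panels are at unequal depth per cell. The duodenum (3.62%) and jejunum (3.04%) are highest on the left and the colon (0.250%, 12 cells) is lowest, while on the right the cecum (20.1%) lies among the small intestinal values.

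To compare both sets, the UMIs of each set were summed per library and tested with edgeR's quasi-likelihood test with library as a term, so that every difference is within a library, and p-values were adjusted over all genes by Benjamini-Hochberg. Of 9049 genes tested, 1650 were higher in PROX1+ cells (18.2% of genes tested) and 1622 were lower (17.9%) at an adjusted p under 0.05, so 36.2% of all genes moved in either direction, and the counts of gene lists below are to be read against these shares. In what follows a gene is said to be higher or lower where it passed this test, and differences are log2 values with SE. The test gives no SE itself, so the SE was taken as the absolute difference divided by the square root of the F statistic. It is least reliable for genes with few UMIs.

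All 7 lymphatic marker genes that could be tested were higher in PROX1+ cells (median difference 2.87), and all 10 blood endothelial markers were lower (median -2.79). CCL21 reached 9380.5 CPM in the abomasum, 8175 in the duodenum, 8083 in the jejunum, 20512 in the ileum, 8869 in the cecum, 5614 in the colon and 7483 in the rectum, against 428 to 2335 CPM in PROX1- cells (2.91 ± 0.20, adjusted p = 1.21e-07). The ileum stood highest and the other 6 libraries lay between 5614 and 9380.5 CPM. The extracellular matrix glycoprotein MMRN1 had 2989 in the rectum, 4173 at the median, and 6087 CPM in the duodenum against 391 to 751 CPM (2.89 ± 0.12). The hyaluronan receptor LYVE1 had 1361 in the abomasum, 1688 at the median, and 2249 CPM in the duodenum against 184 to 342 CPM (2.77 ± 0.16). For each of these genes no library of one set reached into the range of the other.

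The membrane glycoprotein PDPN, by which lymphatic vessels are told from blood vessels in tissue sections, was at 106 in the duodenum, 129 at the median, and 217 CPM in the rectum against 14.5 to 46.4 CPM (2.42 ± 0.11). RELN, a secreted matrix protein of lymphatic endothelium, had 151 in the rectum, 174 at the median, and 261 CPM in the duodenum against 18.0 to 33.4 CPM (2.87 ± 0.12), and PKHD1L1, a large membrane protein related to fibrocystin, had 201 in the jejunum, 271 at the median, and 375 CPM in the abomasum against 23.1 to 63.7 CPM (2.93 ± 0.11). Adjusted p-values of these 3 genes ran from 1.94e-09 to 5.30e-09, and their levels in both sets were again apart. STAB2 and TBX1 were too low for the test. TBX1, a transcription factor of early lymphatics, had 0 to 8.18 CPM against 0.883 to 1.88 CPM, and STAB2 is described with the regions below.

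The separation also held in shares of cells at equal depth. Every cell was thinned to 1000 UMIs, which left out 2 PROX1+ and 62 PROX1- cells. CCL21 was then found in 78.1 ± 7.51% of PROX1+ cells and 14.3 ± 3.72% of PROX1- cells (mean ± SD over 7 libraries). It was found in 0 to 2.09% of stromal barcodes per library, which had median depths of 3463 to 7087.5 UMIs per cell. MMRN1 was found in 89.1 ± 4.59% against 15.9 ± 4.15%, LYVE1 in 69.3 ± 9.50% against 13.9 ± 4.00%, and FLT4 in 39.9 ± 7.54% against 7.22 ± 1.86%. In the other direction, PLVAP was found in 7.64 ± 5.64% against 73.3 ± 7.26%, and VWF in 10.6 ± 8.62% against 55.1 ± 7.08%. Of 19 markers compared in this way, 7 lymphatic markers were higher and 9 blood endothelial markers lower in 7 of 7 libraries, with an exact sign-flip p of 0.0156, the smallest that 7 libraries allow, and an adjusted p of 0.0186. Without thinning the differences were 67.4 percentage points for CCL21, 73.9 for MMRN1, 63.3 for LYVE1, 66.2 for FLT4, and -66.0 for PLVAP. KDR (exact p = 0.188), STAB2 (exact p = 0.25), and TBX1 (exact p = 0.156) did not pass. A cell without a UMI of a gene may still express it.

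**Figure D2:**
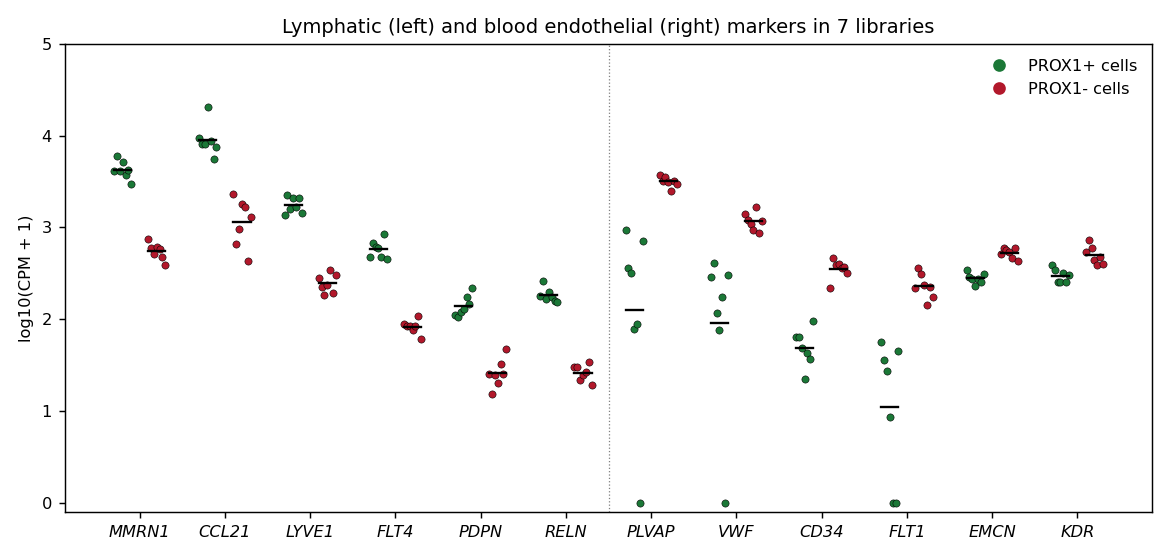
Levels of 6 lymphatic and 6 blood endothelial marker genes in PROX1+ and PROX1- cells, as log10(CPM + 1) with a point per library and a line at the mean of 7 libraries on this scale. The 6 lymphatic markers lie higher in PROX1+ cells and PLVAP, VWF, CD34, and FLT1 lower, and the gaps of EMCN and KDR are smaller.

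Pan-endothelial genes that the rule did not use were expressed in both sets. CDH5, the adherens junction cadherin of all endothelium, had 352 to 602 CPM in PROX1+ and 417 to 483 CPM in PROX1- cells (difference -0.16 ± 0.08, adjusted p = 0.15), and ERG, an endothelial transcription factor, 66.9 to 181 and 65.3 to 119.7 CPM (-0.32 ± 0.14, adjusted p = 0.106). The ranges of both genes overlapped. Of 7 genes tested in this list 1 was higher (ECSCR, 0.27), a call that was lost with DESeq2, with RLE factors, with no filter on low counts, with at least 2 PROX1 UMIs, without library as a term, after thinning, and without the abomasum, duodenum, ileum, cecum, or rectum. In the same list 3 were lower (2 without the ileum and 5 without the colon), namely the junction protein ESAM (-3.05 ± 0.20), the angiopoietin receptor TEK (-1.51 ± 0.13), and ROBO4 (-0.46 ± 0.13). ESAM was at 7.46 in the cecum, 28.5 at the median, and 55.6 CPM in the abomasum in PROX1+ cells against 182 to 292 CPM, the widest gap of the list.

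Among genes with a symbol, at least 20 CPM, and the same direction in every library, the 15 with the largest positive difference spanned 2.90 to 3.29, with adjusted p-values of 1.36e-09 to 3.98e-06. REEP1, which shapes the endoplasmic reticulum, led with 94.9 CPM in the abomasum, 208 in the duodenum, 252 in the jejunum, 209.7 in the ileum, 106 in the cecum, 108 in the colon and 66.9 in the rectum, against 6.07 to 25.9 CPM in PROX1- cells (3.29 ± 0.12). Each library of PROX1+ cells was above each of PROX1- cells, and the duodenum, jejunum, and ileum stood highest. The homeobox gene SHOX2 followed with 24.1 in the colon, 35.0 at the median, and 72.8 CPM in the ileum against 1.32 to 6.70 CPM (3.26 ± 0.22), and then the adhesion G protein-coupled receptor ADGRG3 with 76.9 in the abomasum, 133 at the median, and 168 CPM in the cecum against 7.59 to 19.4 CPM (3.11 ± 0.11). Scaffold and cytoskeleton genes in this group were AKAP12, an anchor of protein kinase A (3.08 ± 0.12), WASF3, a regulator of branched actin (3.01 ± 0.17), and DSP, the desmoplakin of intercellular junctions (2.97 ± 0.30).

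Surface and secreted proteins made up most of the rest. MRC1, the mannose receptor better known from macrophages, was at 51.4 in the duodenum, 54.6 at the median, and 108 CPM in the colon against 4.22 to 10.5 CPM (3.04 ± 0.19). The part of macrophage RNA in its level was not tested. GPR182, an endothelial receptor that takes up chemokines, was at 96.1 in the cecum, 257 at the median, and 379 CPM in the ileum (2.95 ± 0.16). SCN3A, a subunit of a voltage-gated sodium channel, had 38.8 in the jejunum, 91.6 at the median, and 113 CPM in the rectum (2.96 ± 0.11), and TENM4, a teneurin, 17.6 in the rectum, 20.1 at the median, and 36.1 CPM in the colon (2.90 ± 0.19). ADAMTS12 (2.99), a secreted metalloprotease, ANGPTL1 (2.93), an angiopoietin-like factor, and MANSC4 (2.98) completed it beside CCL21 and PKHD1L1.

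Because PROX1- cells held lymphatic transcripts, levels were also taken in PROX1- cells without a UMI of LYVE1, MMRN1, FLT4, PDPN, or RELN. There the highest library value of these 15 genes was 0 to 17.0 CPM, and SCN3A and TENM4 had 0 UMIs in all. CCL21 and PKHD1L1 reached 17.0 and 3.62 CPM in that set, and REEP1 0.559 CPM. The size of the fitted differences depended on this choice. Lymphatic transcripts in PROX1- cells limit how large a positive difference can be. The order of these 15 genes, with REEP1 first, is therefore not an order of how specific they are. Against that set the median was 11.6 in place of 2.87 for the 7 lymphatic markers tested. The 5 genes that define the set are at 0 there by construction, so this median depends on the prior count of the fit and is no bound. CCL21 and PKHD1L1, which did not define the set, differed by 9.93 and 8.43 in place of 2.91 and 2.93. Over the initial lymphatic and scavenger genes described below the median was 6.91 in place of 2.42, with 9 higher and 2 lower of 12 tested. LYVE1, MMRN1, PDPN, and RELN belong to this list and are at 0 in that set by construction. This median and the count of higher genes were thus in part fixed beforehand.

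The 15 genes with the largest negative difference spanned -5.19 to -3.60 (adjusted p = 1.27e-08 to 2.10e-05). GJA5, the connexin of arterial endothelium, was at 0 in the duodenum, cecum, and colon, 1.26 at the median, and 5.28 CPM in the rectum in PROX1+ cells against 33.6 to 83.7 CPM (-5.19 ± 0.35). ESM1, a proteoglycan of sprouting blood vessels, was at 0 in the cecum and colon, 1.76 at the median, and 8.18 CPM in the abomasum against 46.3 to 145 CPM (-4.71 ± 0.24). Genes of the insulin-like growth factor system were IGF2, at 12.0 in the colon, 58.9 at the median, and 197 CPM in the rectum against 678 to 1226 CPM (-3.72 ± 0.31), and IGFBP3, at 0 in the colon, 63.8 at the median, and 186 CPM in the duodenum against 707 to 2332 CPM (-4.27 ± 0.39). MADCAM1, the addressin by which lymphocytes home to gut venules, had 0 in the colon, 10.4 at the median, and 151 CPM in the rectum against 202 to 891 CPM (-3.82 ± 0.46). The others were FAP (-3.92), the transcription factors TCF15 (-3.91), MECOM (-3.85), and HEY1 (-3.80), CD93 (-3.70), the TGF-beta inhibitor SMAD7 (-3.66), the phosphatase PTPRR (-3.64), PLVAP (-3.63), the serpin SERPINA5 (-3.62), and MALL (-3.60).

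**Figure D3:**
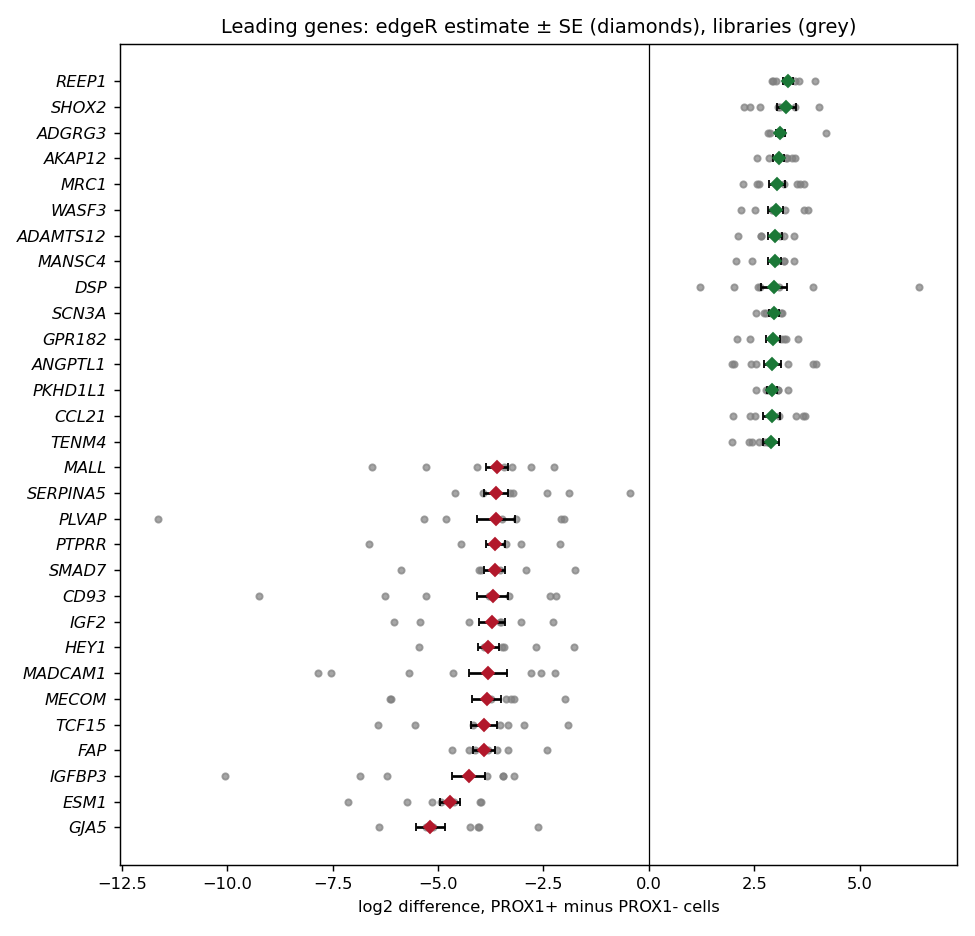
Difference between PROX1+ and PROX1- cells for the 15 highest and 15 lowest genes of the rule, on the log2 scale. Diamonds with bars are the edgeR estimate ± SE and grey points are the 7 libraries (log2 ratio of CPM with 1 CPM added). REEP1 leads with 3.29 and GJA5 is lowest with -5.19. Each grey point of a gene lies on the same side of 0 because the rule required it.

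Of 22 tested genes for lymphatic growth factor signaling 6 were higher and 12 lower (median -0.41). Among receptors, FLT4 had 474 CPM in the abomasum, 681 in the duodenum, 619 in the jejunum, 593 in the ileum, 477 in the cecum, 843 in the colon and 458 in the rectum against 59.6 to 108 CPM in PROX1- cells (2.77 ± 0.10, adjusted p = 1.90e-09). KDR was lower, at 251 to 388 against 389 to 722 CPM (-0.78 ± 0.12), and FLT1, the VEGFR1 of blood vessels, was lower by more (-3.37 ± 0.35), at 0 in the cecum and colon, 26.1 at the median, and 55.6 CPM in the abomasum against 143 to 364 CPM. The neuropilins moved in opposite directions. NRP2, the coreceptor for VEGFC, was higher (12.6 in the ileum, 19.7 at the median, and 60.2 CPM in the colon against 3.68 to 6.18 CPM, 1.95 ± 0.20), and NRP1, the coreceptor for VEGFA, was lower (0 in the colon, 21.9 at the median, and 49.3 CPM in the rectum against 124 to 222 CPM, -2.98 ± 0.29).

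The ligand VEGFC itself was lower in PROX1+ cells, at 0 in the colon, 8.40 at the median, and 29.9 CPM in the rectum against 53.0 to 165 CPM (-3.38 ± 0.23, adjusted p = 9.75e-08), and VEGFD was at most 0.353 CPM. Of the angiopoietin system, ANGPT2 was higher (165 in the cecum, 272 at the median, and 350.3 CPM in the rectum against 51.4 to 84.9 CPM, 1.85 ± 0.12) and its receptor TEK lower. Of the adrenomedullin system, which acts on lymphatic growth and permeability, the peptide gene ADM was higher (1.70 ± 0.27) and ran from 31.7 to 353 CPM between libraries, whereas the receptor parts CALCRL (-0.41 ± 0.13), RAMP2 (-0.42 ± 0.08), and RAMP3 (-0.88 ± 0.11) were lower by small steps. The TGF-beta and BMP9 receptor genes ENG (-1.92 ± 0.15) and ACVRL1 (-1.62 ± 0.14) were lower. S1PR1, a receptor for sphingosine 1-phosphate, was higher (0.44 ± 0.08), and so was ITGA9, an integrin of lymphatic valves (1.29 ± 0.23). EPHB4 did not pass (difference 0.21 ± 0.13, adjusted p = 0.226).

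Of 21 tested endothelial transcription factors 6 were higher and 10 lower (median -0.32). Leaving out 1 library moved the median between -0.36 (without the abomasum) and -0.16 (without the ileum). After thinning it was -0.03, with 4 higher and 5 lower of 16. The orphan nuclear receptors that act with PROX1 were both higher. NR2F1 had 312 in the duodenum, 418 at the median, and 518 CPM in the colon against 38.3 to 106 CPM (2.67 ± 0.12, adjusted p = 3.19e-09), and NR2F2, which also marks veins, 466 in the abomasum, 497 at the median, and 578 CPM in the colon against 149 to 332 CPM (1.25 ± 0.15). Both sets of libraries were apart for both genes, and the fold of NR2F2 was the smaller. TAL1 (1.38 ± 0.13), NFATC1 (1.26 ± 0.16), KLF6 (0.48 ± 0.12), and ELK3 (0.25 ± 0.08) were the other 4 that were higher.

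SOX18, which switches on PROX1 in the embryo, was lower by a small step (440.1 to 658 against 543 to 894 CPM, -0.47 ± 0.10), and so was GATA2 (-0.38 ± 0.09). EPAS1, the hypoxia-inducible factor of endothelium, had 36.1 in the colon, 84.0 at the median, and 134 CPM in the abomasum against 400.2 to 681 CPM (-2.72 ± 0.16), with no overlap. The arterial factors SOX17 (-3.17 ± 0.39) and HEY1 (-3.80 ± 0.26) and the homeobox gene MEOX2 (-1.98 ± 0.29) were also lower, as were FLI1, KLF2, KLF4, and LYL1 (differences -0.93 to -0.51). Of the valve factor FOXC2, 2 PROX1+ cells held a UMI.

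Genes of initial lymphatics and of scavenging were mostly higher (9 higher and 3 lower of 13 tested, median 2.42). Besides LYVE1, CCL21, PDPN, RELN, MMRN1, PKHD1L1, and MRC1, the scavenger receptor STAB1 had 942 in the ileum, 999.6 at the median, and 1256 CPM in the duodenum against 181 to 316 CPM (2.09 ± 0.12), and TFPI, the inhibitor of tissue factor, 118 in the abomasum, 149 at the median, and 193 CPM in the colon against 52.8 to 109 CPM (0.95 ± 0.12). The fatty acid receptor CD36 was lower (0 in the colon, 55.3 at the median, and 88.0 CPM in the rectum against 313 to 789.6 CPM, -3.38 ± 0.34), as were the fatty acid binding protein FABP5 (-2.33 ± 0.33) and the peptide gene NTS (-3.18 ± 0.47). NTS, which marks lymphatic endothelium in some other organs, had 0 in 5 libraries and at most 21.3 CPM in the abomasum in PROX1+ cells.

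Of 18 chemokine and trafficking genes tested 5 were higher and 11 lower (median -1.15). The higher genes were CCL21, GPR182, S1PR1, the decoy receptor ACKR2 (94.9 in the abomasum, 144 at the median, and 394 CPM in the rectum against 13.5 to 53.4 CPM, 2.64 ± 0.17), which clears inflammatory chemokines, and the inhibitory surface protein CD200 (2.16 ± 0.19). Lower genes that act in the entry of leukocytes from blood were the Duffy receptor ACKR1 (-3.45 ± 0.33), SELP (P-selectin, -3.05 ± 0.26), MADCAM1, VCAM1 (-1.50 ± 0.22), ICAM1 (-1.91 ± 0.22), and JAM2 (-3.34 ± 0.27). The chemokine genes CXCL12 (-3.51 ± 0.31), CX3CL1 (-3.01 ± 0.27), and CCL14 (-1.75 ± 0.22) were lower as well, and CCL14 still reached 199 to 1237 CPM in PROX1+ cells. IL33 was at 0 in the colon, 15.1 at the median, and 64.4 CPM in the cecum against 17.5 to 132 CPM (-0.80 ± 0.18), and IL7 was too low for the test (0 to 13.1 CPM).

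Arterial, venous, and capillary genes of blood vessels were mostly lower in PROX1+ cells. Of 14 arterial genes tested 11 were lower and 2 higher (median -1.77), of 8 venous genes 5 were lower and 1 higher (median -1.63), and of 13 capillary genes 12 were lower and 0 higher (median -3.29). The 2 arterial genes that were higher were the netrin receptor UNC5B (1.13 ± 0.15) and NOTCH1 (0.74 ± 0.13), while NOTCH4 (-1.56 ± 0.12) and the Notch ligands DLL4 (-1.94 ± 0.20) and JAG1 (-1.41 ± 0.17) were lower. The venous gene that was higher was NR2F2. PLVAP, the diaphragm protein of fenestrated capillaries, had 936 CPM in the abomasum, 359.5 in the duodenum, 320.0 in the jejunum, 76.6 in the ileum, 87.7 in the cecum, 0 in the colon and 706 in the rectum, against 2486 to 3753 CPM in PROX1- cells (-3.63 ± 0.44). It varied widely among the libraries of PROX1+ cells, with the abomasum highest and the colon at 0, and no library reached the PROX1- range.

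VWF, the clotting factor carrier stored by endothelium, was most often found in PROX1+ cells of the duodenum. It had 285 CPM in the abomasum, 413 in the duodenum, 116 in the jejunum, 75.3 in the ileum, 175 in the cecum, 0 in the colon and 301 in the rectum in PROX1+ cells against 867 to 1673 CPM in PROX1- cells (-2.77 ± 0.29). A VWF UMI was held by 68.4% of the 307 PROX1+ cells of the duodenum, by 23.4 to 37.0% of those in the abomasum, jejunum, ileum, cecum, and rectum, and by 0 of 12 in the colon. The share in stromal barcodes was 3.15 to 7.31% per library. PLVAP, by contrast, was highest in the abomasum and rectum. EMCN (-0.95 ± 0.11) and KDR, both at over 200 CPM in every library of PROX1+ cells, were the blood endothelial markers with the smallest differences.

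Valves divide collecting lymphatic vessels into segments. Of 12 valve genes tested 7 were higher and 3 lower (median 1.12), and the 3 lower genes were GATA2, ESAM, and FN1 (-2.11 ± 0.20). After thinning to 1000 UMIs per cell 6 valve genes could be tested, of which 2 were higher and 3 lower (median -0.64). CLDN11, the claudin of oligodendrocyte myelin and of lymphatic valves, had 105 CPM in the abomasum, 0.547 in the duodenum, 10.6 in the jejunum, 59.0 in the ileum, 98.0 in the cecum, 301 in the colon and 44.0 in the rectum (2.44 ± 0.32, adjusted p = 4.44e-05). It was found in 66 PROX1+ cells, 21 of 135 (15.6%) in the abomasum and 24 of 136 (17.6%) in the cecum, 8 of 73 in the rectum, and 5 of 111 in the ileum, but 1 of 307 in the duodenum and 6 of 399 in the jejunum. In the colon 1 of 12 cells held all of its CLDN11 UMIs. The gap junction gene GJA4 was found in 113 cells and together with CLDN11 in 34. GJA4 as a whole was not called, with 0 to 274 CPM in PROX1+ and 74.3 to 243 CPM in PROX1- cells (-1.11 ± 0.44, adjusted p = 0.0657). These shares are at unequal depth, with median UMIs per PROX1+ cell of 4026 in the abomasum, 5423 in the duodenum, 6777 in the jejunum, 6382 in the ileum, 7426 in the cecum, 6084.5 in the colon, and 7356 in the rectum.

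Of the other valve genes, SEMA3A, which keeps smooth muscle away from valves, had 8.40 in the cecum, 16.9 at the median, and 60.2 CPM in the colon against 1.49 to 4.40 CPM (2.86 ± 0.27). The connexin gene GJA1 was higher (198 in the abomasum, 331 at the median, and 795 CPM in the colon, 1.36 ± 0.11). CD24 was not called (0.99 ± 0.39, adjusted p = 0.0639) but ran from 9.88 to 398 CPM between libraries of PROX1+ cells. Over the whole list of 20 junction genes tested, 4 were higher and 6 lower (median -0.17). CTNNB1, the adherens junction catenin, was at 189 to 247 and 187 to 252 CPM (difference 0.06 ± 0.08, adjusted p = 0.634), whereas the polarity gene PARD3 was higher (1.50 ± 0.16) and the junctional adhesion genes JAM2 and JAM3 (-1.67 ± 0.13) lower.

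Matrix genes were divided. Of 31 tested 12 were higher and 11 lower (median -0.32). After thinning 11 were higher and 7 lower of 25 (median 0.02). Of the laminin and nidogen genes of the basement membrane 5 of 6 tested were higher, with LAMA4 at 348 in the ileum, 368 at the median, and 723 CPM in the colon against 116 to 216 CPM (1.44 ± 0.09), LAMB1 by 0.96 ± 0.11, LAMC1 by 0.69 ± 0.08, NID1 by 0.60 ± 0.10, and NID2 by 0.56 ± 0.13, while LAMB2 was not called (-0.13 ± 0.12, adjusted p = 0.434). Lower genes included the collagen IV genes COL4A1 (-0.72 ± 0.16) and COL4A2 (-1.20 ± 0.24), the perlecan gene HSPG2 (-1.83 ± 0.20), COL15A1 (-2.82 ± 0.27), and SPARC (-1.84 ± 0.23). The microfibril protein EMILIN1, which ties lymphatic endothelium to its anchoring filaments, was higher (2.51 ± 0.33) but low, at 6.02 to 24.1 against 0 to 2.69 CPM. Elastin (ELN) was higher (1.09 ± 0.24) and varied between tissues in both sets (394 to 2171 and 187 to 2128 CPM). The protease gene MMP14 (1.76 ± 0.17) and the inhibitor TIMP2 (159 in the duodenum, 447 at the median, and 952 CPM in the colon against 30.8 to 156 CPM, 2.17 ± 0.10) were higher.

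Of 30 secreted growth factor and niche genes tested 10 were higher and 12 lower (median -0.04). The insulin-like growth factors moved in opposite directions. IGF1 had 37.2 in the duodenum, 47.6 at the median, and 72.3 CPM in the colon against 3.04 to 14.8 CPM (2.64 ± 0.16, adjusted p = 4.79e-08), and IGF2 was lower, as given above. Among the higher genes were the BMP ligand BMP2 (73.9 in the rectum, 205 at the median, and 309 CPM in the ileum against 22.8 to 48.1 CPM, 2.09 ± 0.20), TGFB3 (2.49 ± 0.25), the lipase inhibitor ANGPTL4 (1.96 ± 0.12), and the guidance genes SEMA3D (2.53 ± 0.20) and SEMA6A (1.66 ± 0.11). Lower genes included the nitric oxide synthase NOS3 (-3.27 ± 0.23), the stem cell factor KITLG (-3.28 ± 0.33), endothelin (EDN1, -2.24 ± 0.18), FGF2 (-2.67 ± 0.26), and PDGFB (-1.30 ± 0.28). RSPO3, a Wnt amplifier of the crypt niche, was too low for the test, at 0 to 3.27 CPM, and WNT2 had 0 to 25.2 CPM with the highest value in the duodenum, against 0 to 1.52 CPM.

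Of 13 genes of lipid uptake tested, 3 were higher and 3 lower (median 0.06, and -0.14 with DESeq2). The caveola gene CAVIN2 was higher, at 965 in the rectum, 1468 at the median, and 1893 CPM in the ileum against 426 to 664 CPM (1.33 ± 0.10), as was the lipase MGLL (0.33 ± 0.10), and CD36, FABP5, and CAVIN1 (-0.28 ± 0.08) were lower. Fatty acid oxidation, which feeds lymphatic differentiation in other models, had 5 genes higher and 2 lower of 15 tested (median 0.20). The higher count was 3 with DESeq2, without library as a term, without the duodenum, or without the jejunum, and 1 of 10 after thinning, and a share of 3 of 15 is near the 18.2% of all genes. The 5 genes were HADHA (0.40 ± 0.08) and HADHB (0.44 ± 0.09) of the trifunctional protein, ACADS (0.54 ± 0.16), ACAA2 (0.37 ± 0.09), and the carnitine carrier SLC25A20 (0.58 ± 0.20). CPT1A, which admits fatty acids to mitochondria, had 60.2 to 129 and 69.8 to 98.7 CPM (0.11 ± 0.11, adjusted p = 0.518). PDK4, a kinase that holds back glucose oxidation, was lower (138 in the duodenum, 236 at the median, and 520.2 CPM in the abomasum against 462 to 869 CPM, -1.55 ± 0.17), and so was ACADL (-1.21 ± 0.38), an acyl-CoA dehydrogenase.

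Of 28 cell division genes tested 7 were higher, near the 18.2% of all genes, and 2 lower (median 0.54). The counts moved with single libraries, to 7 higher and 5 lower without the cecum (median 0.19), 6 and 4 without the abomasum, and 11 and 1 of 25 without the jejunum (median 0.85), and without library as a term they were 3 and 1. CENPF had 388 CPM in the abomasum, 126 in the duodenum, 22.6 in the jejunum, 261 in the ileum, 365 in the cecum, 12.0 in the colon and 253 in the rectum (1.80 ± 0.37, adjusted p = 0.00176). The abomasum value, the highest, came from 3 of 135 cells, and a CENPF UMI was held by 17 of 111 cells in the ileum, 19 of 136 in the cecum, and 10 of 73 in the rectum. TOP2A had 22.2 in the jejunum, 70.3 at the median, and 160.5 CPM in the cecum against 10.8 to 60.7 CPM (1.35 ± 0.26). MKI67 was not called, with 0 to 79.3 and 5.95 to 60.7 CPM (0.79 ± 0.39, adjusted p = 0.14). The other 5 higher genes were CCNA2, CENPE, BIRC5, KIF20A, and PRC1, and the 2 lower genes were PCNA (-0.91 ± 0.20) and MCM5 (-0.70 ± 0.25). In single cells, at unequal depth, UMIs were found for TOP2A in 109 PROX1+ cells, for CENPF in 78, and for MKI67 in 44 of 1173.

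Immediate early and heat shock genes were lower in PROX1+ cells (16 of 18 tested, 0 higher, median -1.49). FOS was at 12.0 in the colon, 78.3 at the median, and 308 CPM in the jejunum against 182 to 1072 CPM (-1.86 ± 0.33), JUNB at 133 in the colon, 247 at the median, and 785 CPM in the rectum against 503 to 2196 CPM (-2.00 ± 0.26), and HSPA1A at 157 in the colon, 893 at the median, and 3608 CPM in the jejunum against 1455 to 8667 CPM (-1.85 ± 0.28). These genes also respond to dissociation, and its part in the difference was not tested. Both sets came from the same suspension in each library, which does not show that they responded to dissociation alike. The 5 tested class II MHC genes were lower as well (median -1.69), among them CD74 (582 CPM in the abomasum, 107 in the duodenum, 797 in the jejunum, 301 in the ileum, 554 in the cecum, 12.0 in the colon and 248 in the rectum, -1.86 ± 0.31) and BOLA-DRA (-1.69 ± 0.32). CD74 was highest in the jejunum and abomasum, the libraries in which C1QA was highest in PROX1+ cells, and the part of macrophage RNA in these levels was not tested.

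To see how PROX1+ cells differ along the gut, the 3 libraries of the large intestine (cecum, colon, rectum) were compared with the 3 of the small intestine (duodenum, jejunum, ileum). Of 7567 genes tested 26 were higher in the large intestine (0.344% of genes tested) and 28 were lower (0.37%), or 0.714% in either direction. In PROX1- cells the same comparison called 3 genes higher and 3 lower of 10346 (0.029% each, 0.058% in either direction). At an unadjusted edgeR p under 0.05 there were 1522 of 10346 genes in PROX1- cells and 819 of 7567 in PROX1+ cells. The counts of calls therefore do not show that regional differences are particular to PROX1+ cells. The test of whether the regional step differed between both sets called 6 genes with a more positive step in PROX1+ cells (0.0605% of 9913) and 20 with a more negative one (0.202%), or 0.262% in either direction. Without the cecum or without the rectum, the calls within PROX1+ cells fell to 1 higher and 3 lower, so most of these calls rest on having both libraries, and the third, the colon, holds 12 cells.

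CDH13 and IGFBP3 were called in PROX1+ cells and also in the test of the difference between both sets. CDH13, a cadherin anchored by lipid that binds adiponectin and low density lipoprotein, had 10.9 CPM in the duodenum, 10.6 in the jejunum, and 11.3 in the ileum, against 176 in the cecum, 60.2 in the colon, and 157 in the rectum (3.71 ± 0.32, adjusted p = 0.00362). The abomasum, which was not in the test, had 131 CPM and so stood with the large intestine. PROX1- cells had 47.2, 91.7, and 103 CPM in the small and 199, 97.2, and 143 CPM in the large intestine, and the step in PROX1+ cells was larger by 2.65 ± 0.29 (adjusted p = 0.00213). IGFBP3, which binds insulin-like growth factors, went the other way, with 186, 161, and 146 CPM in the small and 17.7, 0, and 10.6 CPM in the large intestine (-3.60 ± 0.33, adjusted p = 0.00362). In PROX1- cells it was 707 to 2332 CPM, and the steps differed by -3.16 ± 0.32 (adjusted p = 0.00202).

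**Figure D4:**
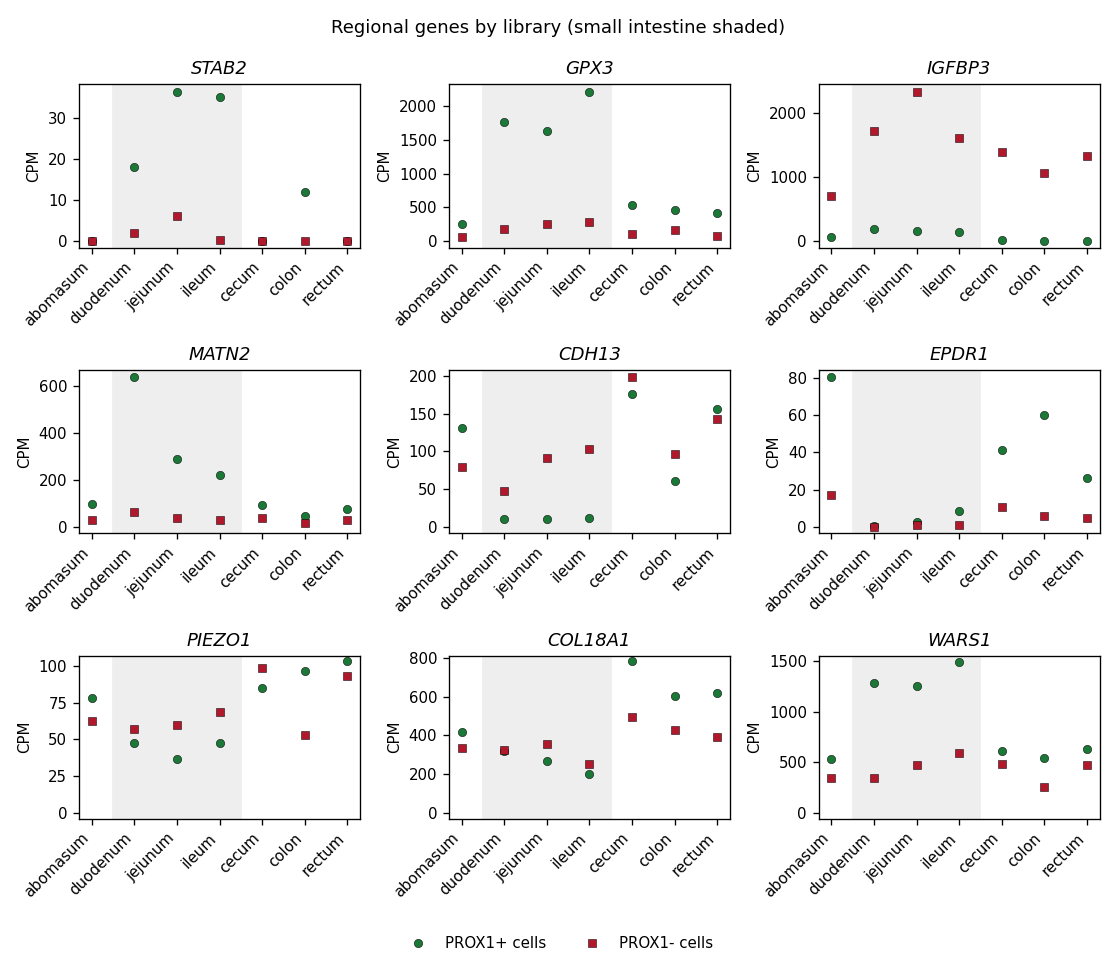
Levels (CPM) of 9 genes along the gut in PROX1+ cells and PROX1- cells, with a point per library from abomasum to rectum. STAB2, GPX3, IGFBP3, MATN2, and WARS1 are highest in the small intestinal libraries of PROX1+ cells, and CDH13, EPDR1, PIEZO1, and COL18A1 are highest in the large intestine or abomasum. IGFBP3 and CDH13 of PROX1- cells do not show steps of the same size.

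STAB2, a scavenger receptor for hyaluronan that is best known from liver sinusoids and lymph nodes, was found in PROX1+ cells of the small intestine and, apart from 1 UMI in the colon, not in those of the other tissues. Its levels were 0 CPM in the abomasum, 18.1 in the duodenum, 36.3 in the jejunum, 35.2 in the ileum, 0 in the cecum, 12.0 in the colon and 0 in the rectum. It was found in 32 of 307 cells of the duodenum (10.4%), 81 of 399 of the jejunum (20.3%), and 24 of 111 of the ileum (21.6%), but in 1 of 12 of the colon, 0 of 135 of the abomasum, 0 of 136 of the cecum, and 0 of 73 of the rectum. A count of 0 allows a share of up to 2.22% in the abomasum, 2.21% in the cecum, and 4.11% in the rectum. This limits cells with a STAB2 UMI, not cells that express the gene. Pooled over libraries this was 164 UMIs in the small and 1 UMI in the large intestine, a small to large ratio of CPM of 51.8 with a counting interval of 9.16 to 2057. The test called it (-5.45 ± 0.96, adjusted p = 0.0407), with a fitted value that depends on the prior count. In PROX1- cells STAB2 had 2.04 CPM in the duodenum, 6.08 in the jejunum, 0.442 in the ileum, and 0 in the other 4 libraries, and stromal barcodes had at most 0.0863 CPM. A difference in step between both sets was not called (1.16 ± 1.45, adjusted p = 0.862). In the duodenum and jejunum, 11.4% and 10.7% of PROX1- cells held UMIs of at least 3 lymphatic genes. This test therefore cannot tell whether other endothelium shares the step, and PROX1- cells without lymphatic UMIs were not used in it.

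Other genes of the small intestinal PROX1+ cells with few UMIs in the large intestine were CFB, the complement factor B, with 258 UMIs in the small and 1 in the large intestine (ratio of CPM 81.4, counting interval 14.5 to 3229), and ATP6V0D2, a subunit of the proton pump, with 290 UMIs in the small and 3 in the large intestine (ratio of CPM 30.5, counting interval 10.3 to 149). SNX10, which acts in endosome sorting, had 36.1, 38.1, and 27.6 CPM in the small and 6.53, 12.0, and 3.52 CPM in the large intestine (-2.59 ± 0.37, adjusted p = 0.0281). The complement protease gene C1R (-2.49 ± 0.39) and PLAC8B (-2.38 ± 0.34) were lower in the large intestine too. C1R reached 836 CPM in stromal barcodes, and the part of stromal RNA was not tested. REEP1, first of the 15 genes with the largest positive difference between both sets, was lower in the large intestine (-1.35 ± 0.23, adjusted p = 0.0365). So was the adrenomedullin coreceptor RAMP3 (-1.35 ± 0.22, adjusted p = 0.0365).

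The following regional genes were chosen after their values were seen. GPX3, a secreted glutathione peroxidase, had 1766, 1625, and 2211 CPM in the small and 537, 458, and 417 CPM in the large intestine (-2.05 ± 0.20, adjusted p = 0.00427), with 252 CPM in the abomasum. The regions did not overlap, and a difference from the step in PROX1- cells was not called (-0.88 ± 0.26, adjusted p = 0.268). As PROX1- cells held lymphatic transcripts, this does not show that other endothelium shares the step. MATN2, a matrix protein, had 639, 291, and 223 against 95.2, 48.2, and 75.7 CPM (-2.30 ± 0.40), and its step was more negative than that in PROX1- cells (difference of steps -1.79 ± 0.22, adjusted p = 0.00447). WARS1, the tryptophanyl-tRNA synthetase that interferon induces, had 1282, 1257, and 1493 against 608, 542, and 627 CPM (-1.24 ± 0.18, adjusted p = 0.0281), and the steps differed by -1.11 ± 0.21 (adjusted p = 0.0499). AOC3, the vascular adhesion protein, was lower in the large intestine (-1.48 ± 0.26), and so was the retinal reductase DHRS3 (-2.36 ± 0.33).

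Of the genes higher in the large intestine, EPDR1 had 0.547, 2.82, and 8.79 CPM in the small and 41.1, 60.2, and 26.4 CPM in the large intestine (3.52 ± 0.59, adjusted p = 0.0365). COL18A1, whose product holds endostatin, had 318, 269, and 199.6 against 785, 602, and 621 CPM (1.29 ± 0.22). The mechanosensitive channel PIEZO1, which acts in valve formation, was higher by 1.06 ± 0.19 (adjusted p = 0.0436). None of these regions overlapped, which the rule for naming genes required of EPDR1. COL8A1, a short-chain collagen, was higher by 4.36 ± 0.44 but reached 392 CPM in stromal barcodes.

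Several genes with large positive regional steps had far higher levels in other cells. EBD, an enteric beta-defensin, had 107, 277, and 391 CPM in the large intestine against at most 16.3 CPM in the small (6.28 ± 0.99), with up to 22155 CPM in epithelial barcodes. The crypt gene OLFM4 (3.20 ± 0.54) and the trypsin inhibitor SPINK1 (2.73 ± 0.41) reached 7088 and 10395 CPM there, and ADAMDEC1, a metalloprotease of lamina propria cells (4.41 ± 0.69), reached 17145 CPM in stromal barcodes. PROX1- cells of the cecum and rectum had 127 and 415 CPM of EBD, against 107 and 391 CPM in PROX1+ cells. Among fibroblast markers COL1A1 (2.56 ± 0.37) and LUM (2.73 ± 0.49) were higher in the large intestine. The list summed to 647 CPM in the cecum and 554 in the rectum against 79.1 to 173 in the small intestine. In the colon it summed to 24.1 CPM, below every small intestinal library. The part of free RNA from these cells was not tested.

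Steps that differed between both sets were also called for COL4A2 and FABP5 although neither was called within PROX1+ cells. COL4A2 had 32.3, 21.9, and 20.1 CPM in the small and 41.1, 96.4, and 52.8 CPM in the large intestine in PROX1+ cells, while PROX1- cells went from 116, 89.7, and 85.2 to 51.6, 97.2, and 58.1 CPM (difference of steps 1.67 ± 0.22, adjusted p = 0.00748). For FABP5 the difference was 2.17 ± 0.29 (adjusted p = 0.00748), with 4746, 6111, and 4439.7 CPM in the small and 2738, 1784, and 1588 CPM in the large intestine in PROX1- cells. FABP5 of PROX1+ cells lay between 259 and 1257 CPM, and its regions overlapped.

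The abomasum is a stomach compartment and was kept out of the regional test. Of the 54 genes called between small and large intestine in PROX1+ cells, its level was closer to the mean of the large intestine in 42 (77.8%), against 44.0% of all 7567 genes tested. In PROX1- cells the abomasum was closer to the large intestine for 37 of the same 54 genes (68.5%), against 51.8% of genes. By direction, this was 14 of the 26 genes higher in the large intestine (53.8%, near the share of all genes) and 23 of the 28 lower ones (82.1%). In PROX1+ cells it was 19 of 26 (73.1%) and 23 of 28 (82.1%). The abomasum lies next to the duodenum in the gut and was digested with other enzymes than the intestine.

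Homeobox genes of regional identity were set apart because they record position along the gut. Of 15 tested 6 were higher and 4 lower in PROX1+ cells (median 0.16), or 3 and 4 without library as a term. HOXA9 in PROX1+ cells had 27.8 CPM in the abomasum, 35.0 in the duodenum, 41.6 in the jejunum, 32.6 in the ileum, 71.8 in the cecum, 60.2 in the colon and 44.0 in the rectum, so no segment lacked it (1.53 ± 0.35, adjusted p = 0.00336). PROX1- cells had 6.20 CPM in the abomasum, 3.72 in the duodenum, 5.78 in the jejunum, 23.9 in the ileum, 33.1 in the cecum, 42.5 in the colon and 39.8 in the rectum. Stromal barcodes had 0 in the abomasum and duodenum, 0.431 CPM in the jejunum, and 34.4 to 121 CPM from ileum to rectum, and epithelial barcodes 0.0493 to 0.425 CPM in the first 3 segments and 142 to 238 CPM in the later 4. Stromal and epithelial values were thus higher from the ileum on, while PROX1+ cells had the gene in every segment, and their abomasum and duodenum values of 27.8 and 35.0 CPM lay far above the stromal and epithelial values of the same libraries.

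HOXA6 (1.94 ± 0.34), HOXA7 (1.62 ± 0.37), and HOXA5 (0.74 ± 0.13) of the same cluster were higher in PROX1+ cells as well. HOXA6 was at 26.2 CPM in the abomasum and 29.6 CPM in the duodenum, where PROX1- cells had 6.45 and 2.23 CPM. HOXA10, the neighbor of HOXA9 in the cluster, had 1.87 CPM in the cecum, 1.76 CPM in the rectum, and 0 in the other 5 libraries of PROX1+ cells, while stromal barcodes of the large intestine had 59.5 to 104 CPM. HOXD9 (1.41 ± 0.32) and HOXD3 (0.63 ± 0.20) were higher in PROX1+ cells, and HOXB2 (-2.26 ± 0.22), HOXB3 (-0.76 ± 0.22), and HOXB4 (-0.87 ± 0.15) were lower, so the genes called in the A and D clusters were higher and those called in the B cluster lower.

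NKX2-3, the homeobox gene that governs MADCAM1 in gut vessels, was lower in PROX1+ cells, at 0 in the colon, 15.9 at the median, and 31.7 CPM in the rectum against 128 to 185 CPM (-3.31 ± 0.21, adjusted p = 5.80e-08). Each library of PROX1+ cells was below each of PROX1- cells. MADCAM1 itself differed by -3.82 ± 0.46, as given above.

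**Figure D5:**
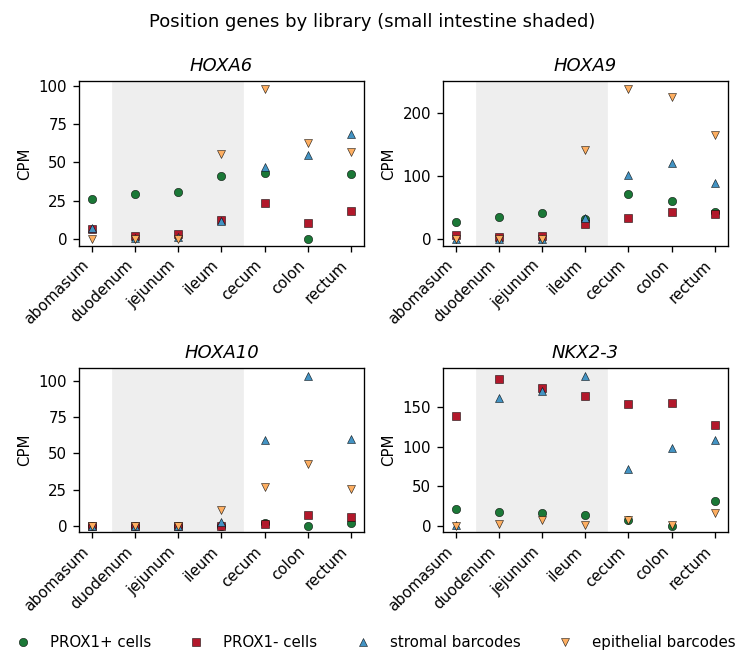
Levels (CPM) of HOXA6, HOXA9, HOXA10, and NKX2-3 from abomasum to rectum in PROX1+ cells, PROX1- cells, and stromal and epithelial barcodes, with a point per library. HOXA9 is present in PROX1+ cells of every segment (27.8 to 71.8 CPM), while stromal and epithelial barcodes lie near 0 up to the jejunum and are higher from the ileum on. HOXA10 is at or near 0 in PROX1+ cells, and NKX2-3 is low in them.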

How the data were processed

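The series holds 15 single-cell libraries of newborn and adult Holstein tissues, of which 7 newborn gut libraries, 1 per tissue, were analysed here. The deposited files hold UMI counts per gene and barcode, which the authors made from 10x Genomics 3' v3 libraries with Cell Ranger 3.1.0 against the genome build ARS-UCD1.2. The annotation release is not given in the sources used here. The files list 27270 genes, of which 7540 had no symbol and kept their identifiers. Counts of barcodes with 500 to 4000 genes and under 50000 UMIs were used as deposited, with no doublet caller and no limit on mitochondrial UMIs. Sets of barcodes were defined as stated in the results, and a set of at least 10 barcodes per library was required. The members, the gene lists, and the tests were chosen with earlier results of these data known.

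UMIs were summed per set and library and tested with the quasi-likelihood test of edgeR 4.0.16 (R 4.3.3, limma 3.58.1), with TMM factors and filterByExpr. The comparison of PROX1+ with PROX1- cells had library as a term, so both sets of a library were paired because they came from the same suspension. The regional comparisons set the 3 large against the 3 small intestinal libraries. P-values were adjusted by Benjamini-Hochberg over all genes tested. Shares of cells with a UMI were compared after thinning to 1000 UMIs with exact two-sided sign-flip tests over libraries, and intervals are exact (Clopper-Pearson) at 95%. A count of 0 was read as allowing 3 counts. Intervals and limits cover counting error only.

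Genes were named if they belonged to the rule for choosing cells or to a described list, if they were among the 15 highest or 15 lowest by log2 difference (called, with a symbol, in the same direction in every library, and at 20 CPM or more in the higher set), or if they were among the 8 highest or 8 lowest regional genes (called, at 20 CPM or more in the higher region, and without overlap between regions). Genes outside this rule are said to be chosen after their values were seen. Some genes that the rule names are not reported here.

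The fit was tested on simulated counts. For PROX1+ against PROX1- cells, 100 of 100 genes changed 2-fold and 100 of 100 changed 4-fold were recovered, with 8 false calls among 8899 genes run. For the regions 84 of 100 and 97 of 100 were recovered, with 8 false calls among 7480 genes run. All simulated libraries were drawn from the same pooled profile, and changed genes had at least 20 CPM in it. The dispersion came from the fit with library as a term. The simulated regions therefore lack the full spread between tissues, and these figures do not give the recovery or false calls of the real regional test. Alternatives were other normalizations, DESeq2 1.42.0, no filter on low counts, a limit of 40% mitochondrial UMIs, removal of the barcodes with the highest doublet scores (Scrublet-type, 0.8% per 1000 barcodes, 2 simulated doublets per barcode, 30 components), stricter sets, thinning, and leaving out each library. The software versions were Python 3.11.15, matplotlib 3.10.9, pandas 2.3.3, NumPy 2.4.6, scikit-learn 1.9.0, and SciPy 1.17.1.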

Additional observations from a re-analysis of the deposited data

Results flagged for a closer look

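In 4 of 45 results with a value per library, the difference between PROX1+ and PROX1- cells of the colon stood apart from that of the other 6 libraries (log2 ratio of CPM with 1 CPM added), where chance alone marks about 1 in 20 such groups. ADGRG3 differed by 4.20 in the colon against 2.83 to 3.15 elsewhere. PLVAP differed by -11.6 against -5.34 to -2.00, VWF by -9.76 against -3.63 to -1.54, and NOTCH4 by -2.47 against -1.76 to -1.23. The colon held 12 PROX1+ cells, and PLVAP and VWF had 0 UMIs in them, so these values depend on the 1 CPM added.

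The regional step (large minus small intestine) differed between PROX1+ and PROX1- cells by edgeR's interaction test for 26 genes, with 6 more positive and 20 more negative in PROX1+ cells. The difference of steps was 2.65 for CDH13, -3.16 for IGFBP3, -1.79 for MATN2, -1.11 for WARS1, 1.67 for COL4A2, and 2.17 for FABP5 on the log2 scale.

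In libraries that no comparison used, the rule for PROX1+ cells found more than 3 barcodes in adult jejunum (18), adult cecum (16), newborn reticulum (7), and newborn liver (6). Other lymphatic genes were not checked in these barcodes, so the counts do not show that they are lymphatic cells.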

How the results depend on the processing

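With library as a term, which pairs both sets of a library, 1650 genes were higher and 1622 lower in PROX1+ cells, and without this block 1356 and 1322. Leaving out 1 library at a time gave 1273 to 1728 higher and 1298 to 1682 lower. Thinning to 1000 UMIs per cell gave 653 and 642 calls of 4263 genes tested, and every other alternative stayed within 1.5 times the main counts. Over the single genes, 4362 results kept their direction and side of the threshold, 158 lost the call, 38 gained one, and 8 reversed. Reversed values were those of fibroblast genes against PROX1- cells without lymphatic UMIs (COL3A1 0.051, DCN 0.21, COL1A2 0.17, COL1A1 0.11, LUM 0.36), COL1A2 after thinning (0.18), and C1QA with at least 2 PROX1 UMIs (-0.28) or with both EGFL7 and PECAM1 (-0.37).

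The regional comparison depended on the setting far more. Against 26 genes higher and 28 lower in the large intestine, DESeq2 called 49 and 52, no filter on low counts 190 and 193, thinning 4 and 11 (of 2096 tested), removal of the highest doublet scores 44 and 37, and no upper limit on genes, chosen after seeing the data, 16 and 26. Leaving out 1 library gave 1 to 36 higher and 3 to 37 lower, with 1 and 3 without the cecum, 1 and 3 without the rectum, 6 and 11 without the duodenum, and 7 and 13 without the jejunum. The share of higher calls was 48.1%, and it was 36.0% with both EGFL7 and PECAM1 required, 26.7% after thinning, and 38.1% without the upper limit. Among named regional genes 166 results lost the call, 330 kept it, and 0 reversed. These counts pool all alternatives, and left-out libraries cost the most calls. Without the cecum 22 named genes lost the call and 4 kept it, and without the rectum 25 and 4. Without the duodenum or without the jejunum it was 18 and 10, without the colon 12 and 17, and without the ileum 10 and 19. Without the filter on low counts the test of the difference in step called 110 and 150 genes in place of 6 and 20. At an unadjusted p under 0.05 there were 4055 genes between both sets, 819 between regions in PROX1+ cells, 1522 in PROX1- cells, and 962 for the difference in step. The share difference between regions ran from -2.19 (at least 2 PROX1 UMIs) to -10.7 percentage points (without the cecum). The share of cells with TBX1 passed the test without thinning (2.96 percentage points, exact sign-flip test, adjusted p = 0.0349). The cause of these changes was not tested. After thinning, 1818 of the 3272 genes called between both sets could be tested, and 1221 were called again in the same direction. Of the 54 regional genes, 25 could be tested and 10 were called again. Depth limits the colon (12 cells) most. Tissues share animals and the calf behind each library is not given, so spread between tissues and between animals cannot be told apart.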

Other observations

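LYVE1, often used alone as a lymphatic marker, was also found in PROX1- cells that held no UMI of MMRN1, FLT4, PDPN, RELN, CCL21, or PKHD1L1. The share of such cells with a LYVE1 UMI was 31.9% in the cecum (exact binomial 95% interval 27.1 to 36.9), 32.4% in the rectum (28.2 to 36.8), and 12.3% in the abomasum (9.72 to 15.2), against 2.45 to 6.98% in the duodenum, jejunum, ileum, and colon. Median UMIs per cell in this set were 6488 in the cecum, 5804.5 in the rectum, 4204 in the abomasum, 4567 in the duodenum, 4583 in the jejunum, 6134 in the ileum, and 5274 in the colon. The order was different in stromal barcodes, where the share was 23.8% in the duodenum and 10.8% in the jejunum, but 3.16% in the cecum, 1.89% in the rectum, and 1.48% in the abomasum. In epithelial barcodes it was 0.220 to 3.04%. In leukocyte barcodes (PTPRC without the endothelial or epithelial genes) it was highest in the cecum at 8.20%, with 2.08% in the rectum, 2.33% in the abomasum, 3.21% in the duodenum, 3.36% in the jejunum, 0.396% in the ileum, and 0.443% in the colon. The part of RNA from these cells was not tested.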
